A study of Mus musculus with 24 samples.

Results

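Undifferentiated mouse 3T3-L1 pre-adipocytes were given ML-792, an inhibitor of the attachment of SUMO, the small ubiquitin-like modifier. Libraries from these cells are compared here with those from cells given the solvent DMSO at day -2, before adipogenic induction. Sumoylation itself is not measured by these reads. The members are 6 of the 24 libraries of the series: 3 from cells in medium with 0.5 μM ML-792 and 3 from DMSO cells, each set lettered A, B and C, chosen by the treatment and the day in the sample titles. The other 18 libraries carry the same treatments at days 1, 3 and 7. 3T3-L1 is an established line of mouse embryonic fibroblasts that turns into fat cells under dexamethasone, isobutylmethylxanthine and insulin, and the day -2 cells had received none of these. In every group RNA was labelled for 45 min with 100 μM 4-thiouridine, so that newly made transcripts carry T-to-C conversions. One sequencing run per library therefore gave total reads (QuantSeq, the mRNA pool) and labelled reads (SLAMseq, reads with at least 1 conversion). The study's layout draws ML-792 from day -2 onward, and its viability assay also began treatment at day -2. The hours in ML-792 before the day -2 RNA was taken are not given in the sources used here. The methods call the 3 samples of a condition biological replicates and do not say whether these were separate cultures. The p-values therefore measure the spread between libraries. In the main fits that spread was estimated over all 24 libraries. Days 1, 3 and 7 thus also enter the day -2 p-values and intervals.

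SUMO is attached to proteins by a cascade: the heterodimer SAE1/UBA2 activates it, and ligases such as the PIAS proteins guide its attachment. Most SENP proteases remove SUMO. ML-792 inhibits the activating heterodimer. Most SUMO targets are nuclear, and sumoylated transcription factors and cofactors are known mainly for repressing genes, with PML nuclear bodies and interferon genes among the classical settings. Pre-adipocytes are committed fibroblast-like cells that express the adipocyte programme at a lower level than mature fat cells.

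The 6 libraries held 19478069 to 27013352 total reads and 528191 to 820046 labelled reads. Of 10 defining pre-adipocyte and fibroblast markers, Pdgfra, Pdgfrb, Thy1, Dlk1, Ly6a, Vim, Prrx1, Twist1 and Twist2 had more than 1000 reads in every library, while Cd34 had 9 to 19. In the wider list of 52 pre-adipocyte and fibroblast genes, 42 had enough reads to be tested, Pi16 had 27 to 37 reads, and Nt5e, Tcf21, Six2, Dpp4 and Meox2 were at 0 in all 6 libraries. Lep, an adipokine of mature fat cells, had at most 1 read per library. Adipoq, the adiponectin gene, was already present at a low level, with normalised counts (reads scaled to a common library size) of 239, 398 and 216 in the DMSO libraries A, B and C and 317, 189 and 291 in the ML-792 libraries. At day 7 the DMSO mean of Adipoq was 107728 ± 6442 (SD, n = 3). The summed level of the 12 mature adipocyte markers ranged from 749 to 1192 in DMSO and from 680.4 to 1133 in ML-792, so these ranges overlapped. Markers of other cell types were low but not all absent. Summed normalised counts of the 12 macrophage markers were 248 to 347 with DMSO and 205 to 348 with ML-792, with Cd14 at 167 to 245 reads and Aif1 at 28 to 115 per library, while Ptprc, Itgam and Tyrobp were at 0 in all 6. The 10 endothelial markers summed to 47.6 to 67.0 with DMSO and 38.8 to 70.4 with ML-792, most of it Eng (27 to 79 reads), with Tie1 and Cldn5 at 0. The skeletal muscle markers summed to 50.2 to 117 with DMSO and 72.1 to 99.6 with ML-792, mostly Acta1, Des and Tnnt3, with Myf5 and Pax7 at 0. The ranges of the 2 treatments overlapped for each of these lists.

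Labelled reads made up 3.68%, 2.71% and 3.13% of all reads in the DMSO libraries A, B and C and 3.06%, 2.74% and 2.68% in the ML-792 libraries. The means were 3.17 ± 0.485% with DMSO and 2.83 ± 0.206% with ML-792 (SD, n = 3). Every ML-792 value lay within or just below the DMSO range, and the difference of -0.344 percentage points did not pass a two-sided exact permutation test (p = 0.3, where the smallest p that 3 against 3 libraries allow is 0.1). DMSO library A carried most of it, since without that library the difference was -0.0911 points. Letter by letter, ML-792 minus DMSO was -0.615 points in A, 0.026 in B and -0.444 in C.

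More genes were called for replicate letter than for treatment. DMSO library B stood apart on the first principal component of total reads, at 53.5, while the other 5 libraries lay between -26.5 and 15.7. Correlations of log2 total counts ran from 0.967 to 0.988 between libraries of the same treatment (6 pairs, median 0.983) and from 0.97 to 0.989 between an ML-792 and a DMSO library (9 pairs, median 0.985). In a model of the 6 libraries with both treatment and letter, chosen after the data were seen, the letter was called for 1233 of 12091 genes in total reads (10.2%) and for 243 of 6058 in labelled reads (4.01%). In the same model treatment was called for 0 genes in either, with 327 and 329 genes at an unadjusted p under 0.05 (edgeR). The letter was tested over A, B and C at once and treatment as a single contrast, so these counts come from unlike tests.

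**Figure D1:**
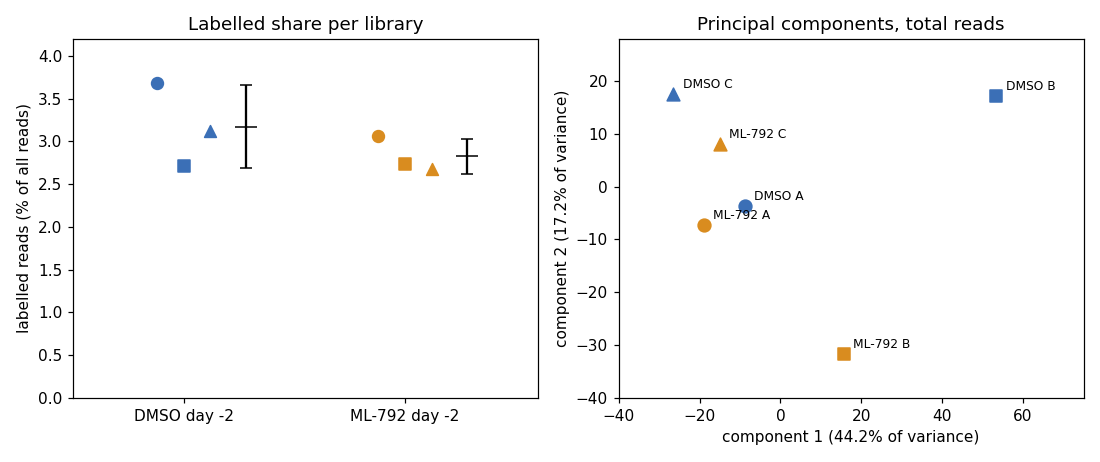
Left, labelled reads as a percentage of all reads in each day -2 library, by treatment (blue DMSO, orange ML-792), with circles, squares and triangles for replicates A, B and C and a black mark with bars for the mean ± SD of 3 libraries. Right, the first 2 principal components of log2 normalised total counts, where DMSO replicate B lies at 53.5 on component 1 and the other 5 libraries between -26.5 and 15.7.

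The first question was whether the mRNA pool of pre-adipocytes differed with ML-792. No gene was called at day -2. Of 13274 genes tested in total reads, 0 passed an adjusted p of 0.1 in edgeR's quasi-likelihood test (0% called, smallest adjusted p 1), and 181 had an unadjusted p under 0.05, which is 1.36% of the genes. Evenly spread p-values would put a share of 0.05 of the genes there, so the lower share is not read as evidence of no change. DESeq2 also called 0, with 239 genes at an unadjusted p under 0.05. The median log2 fold change of ML-792 over DMSO was -0.011, and 90% of the genes lay between -0.51 and 0.52. The 3 ML-792 libraries all exceeded the 3 DMSO libraries for 347 genes (2.61%) and all fell below them for 389 (2.93%).

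How closely each gene was measured sets what a count of 0 can show. The intervals are those of the main fit, which has no term for the replicate letter. In total reads the 95% interval of the fold change lay wholly within 2-fold in either direction for 9377 of the 13274 genes (70.6%), and within 1.5-fold for 4910 (37.0%). The distance from the fold change to either end of its interval had a median of 0.54 on the log2 scale. For the genes outside these counts the interval did not exclude a change of that size.

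Newly made RNA gave no call either. In labelled reads, 0 of 6214 genes were called (0% called, edgeR, smallest adjusted p 1), with 44 genes at an unadjusted p under 0.05 and, in DESeq2, 0 called and 84 under 0.05. The 44 genes were 0.71% of those tested, again below a share of 0.05. The median log2 fold change was -0.19, beside a labelled share of 2.83% in the ML-792 and 3.17% in the DMSO libraries, and it was -0.013 when labelled reads were scaled by their own totals. In all, 470 genes (7.56%) had all ML-792 values below all DMSO values and 85 (1.37%) had them above. Counts were far lower here: the interval lay within 2-fold for only 606 genes (9.75%) and within 4-fold for 4701 (75.7%). When the labelled share of each gene was tested against its own unlabelled reads, 0 of 10128 genes were called (0% called, edgeR), with 206 at an unadjusted p under 0.05, and limma on the log2 odds called 0 with 227 under 0.05.

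**Figure D2:**
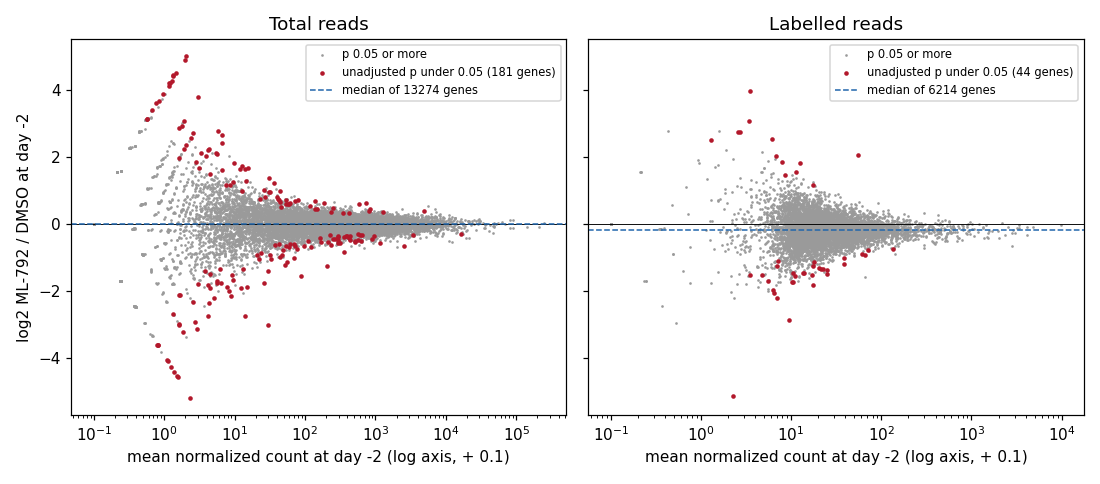
Log2 fold change of ML-792 over DMSO at day -2 for each gene (vertical) against its mean normalised count over the 6 libraries (horizontal, log axis), for total reads (left, 13274 genes) and labelled reads (right, 6214 genes). Red points have an unadjusted p under 0.05 (181 and 44 genes), none passed the adjusted threshold, and the dashed line is the median, at -0.011 and -0.19.

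The genes of the SUMO pathway itself were described next, since ML-792 inhibits the activating enzyme of this pathway. All 32 listed genes were tested in total reads and none was called. Their median log2 fold change was -0.035, beside -0.011 over all genes. Of the 32, 1 had ML-792 values that all exceeded DMSO and 0 had values all below, against backgrounds of 2.61% and 2.93%. The interval lay within 2-fold for 23 of them.

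The modifiers came first. Sumo3 (chromosome 10, 77616259 to 77618331 in mm10) had total counts of 5130.3, 3099 and 5401 in the DMSO libraries A, B and C and 7706, 4793 and 7366 in the ML-792 libraries. Each ML-792 library exceeded the DMSO library of its own letter, but ML-792 B lay below DMSO A and C, and the log2 fold change of 0.54 (95% interval -0.038 to 1.12, adjusted p = 1) was not called in edgeR. The labelled counts of Sumo3 were 102, 31.7 and 85.3 with DMSO and 132, 79.6 and 127 with ML-792, a log2 fold change of 0.63 (95% interval -0.14 to 1.39). Sumo2 is the one member whose groups did not overlap, at 4.00, 0 and 1.74 with DMSO and 6.90, 8.93 and 10.6 with ML-792. These are a few reads per library on an entry whose gene has near-identical copies in the genome, so its level is uncertain, and the log2 fold change of 2.11 (95% interval 0.28 to 3.94, adjusted p = 1) was not called.

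Both subunits of the enzyme that the drug inhibits had fold changes whose intervals included 0. Sae1, the smaller subunit of the activating enzyme, had 2946, 2089.8 and 2646 in the DMSO libraries A, B and C and 2980.5, 2518 and 2668 in the ML-792 libraries, a log2 fold change of 0.088 (95% interval -0.33 to 0.51). Uba2, the catalytic subunit that ML-792 targets, had 708, 1020.2 and 636 in the DMSO libraries A, B and C and 754, 609 and 833 in the ML-792 libraries, where only DMSO B stood out and the fold change was -0.11 (95% interval -0.54 to 0.33).

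Ligases lay on both sides of 0. Pias1, Pias2 and Pias3 had log2 fold changes of -0.031, 0.0086 and 0.12. Pias4 had 215, 144 and 325 with DMSO and 286, 251 and 378 with ML-792, and its fold change of 0.42 (95% interval -0.23 to 1.08) rested on groups that overlapped. Trim28 (KAP1), a corepressor with SUMO ligase activity towards itself, ranged widely within both groups, at 3595, 2191 and 5465 with DMSO and 4852, 3227 and 4968 with ML-792. Zmiz1, Zmiz2, Nsmce2, Topors, Zfp451 and Ranbp2 lay between -0.22 and 0.093. Egr2, a zinc finger factor also described as a SUMO ligase, was the lowest member, at 3351, 3210.4 and 2395 in the DMSO libraries A, B and C and 2659, 2297 and 1840.0 in the ML-792 libraries. Each ML-792 library was below the DMSO library of its letter, ML-792 A exceeded DMSO C, and the fold change was -0.40 (95% interval -0.82 to 0.027, adjusted p = 1). With a replicate block over all 24 libraries Egr2 had -0.40 (edgeR, unadjusted p 0.023), also not called.

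The SENP protease family had no call. Senp1, Senp2, Senp3, Senp5, Senp6, Senp7 and Senp8 had log2 fold changes from -0.26 (Senp5) to 0.054 (Senp1). Among these Senp3 had the widest interval, -1.44 to 1.29. Desi1 and Desi2, of a second protease family, had 0.021 and -0.016, and Uspl1 had 0.29 (95% interval -0.064 to 0.65). Rnf4 and Rnf111, ligases that add ubiquitin to SUMO chains, had -0.22 and -0.11, and Rwdd3, a small protein that promotes sumoylation, had 0.33. Of the 24 SUMO genes tested in labelled reads, none was called and the median was -0.26, beside -0.19 over all genes.

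**Figure D3:**
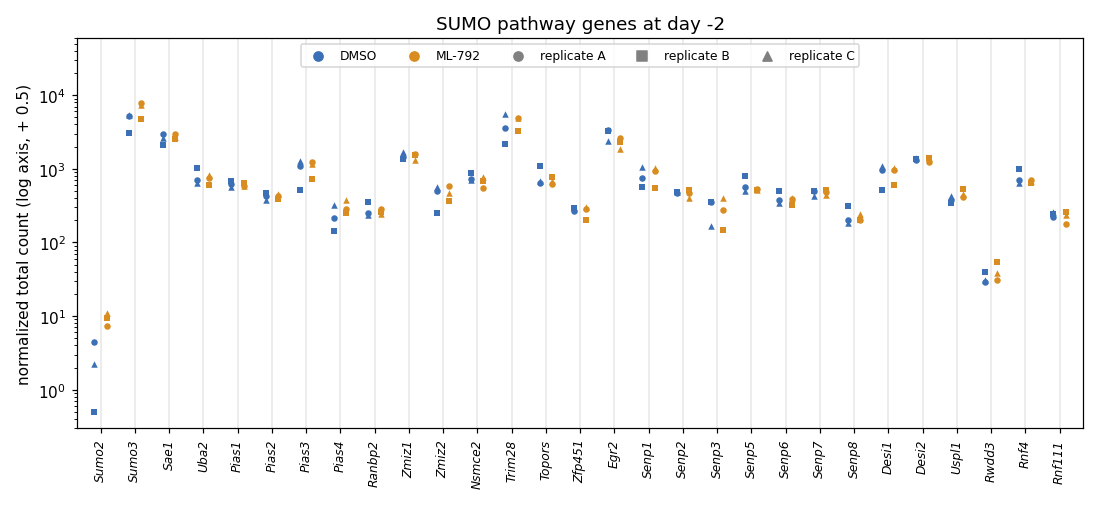
Normalised total counts (vertical, log axis, 0.5 added) of 29 SUMO pathway genes in the 3 DMSO (blue) and 3 ML-792 (orange) day -2 libraries, with circles, squares and triangles for replicates A, B and C. The colours overlap for every gene except Sumo2, whose 6 values lie between 0 and 10.6.

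PML body genes gave no call either. Here and in the lists that follow, single genes are named as examples chosen after their values were seen. Of 13 tested, 1 had ML-792 values all above DMSO, beside 2.61% of all genes, the low-count Sp140 at 10.4, 14.1 and 12.2 with DMSO and 19.8, 17.9 and 14.6 with ML-792, and 0 had them all below. The list median was 0.029. Pml, the scaffold of the bodies, had 771, 558 and 1195 in the DMSO libraries A, B and C and 1119.7, 575 and 989.7 in the ML-792 libraries, with both B libraries low. Daxx, a histone chaperone recruited to the bodies through SUMO, had 1238, 1206 and 1728 with DMSO and 1449, 639.9 and 1365 with ML-792, a log2 fold change of -0.27 (95% interval -0.85 to 0.30).

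No interferon gene was called, and more lay below 0 than above. Of 59 listed, 52 were tested in total reads, 0 were called, 0 had ML-792 values all above DMSO and 1 had them all below, beside 2.61% and 2.93% of all genes. Their fold changes ran from -1.10 to 0.25 with a median of -0.14, and 7 of 52 were above 0. That side rested on single libraries: 26 of 52 were above 0 without DMSO C (median -0.0024) and 25 of 53 without ML-792 B (median -0.020), against 5 to 8 without any other library. Ifit1, an antiviral RNA-binding protein, had 1608, 2415 and 3453 in the DMSO libraries A, B and C and 2164, 867 and 1610.3 in the ML-792 libraries, and the groups overlapped through DMSO A. Its fold change was -0.69 (95% interval -1.41 to 0.034, adjusted p = 1). Isg15, a ubiquitin-like modifier, had 476, 1122 and 669 with DMSO and 582, 443 and 534 with ML-792, where DMSO B was highest. Cxcl10, a chemokine, was the member whose values were all lower with ML-792, at 35.2, 47.6 and 35.7 with DMSO and 13.8, 19.2 and 21.9 with ML-792, and its interval of -2.74 to 0.54 included 0.

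Immediate early genes, which cells switch on within minutes of a stimulus, gave no call. Some had labelled shares far above the 3.17% of the whole DMSO libraries, such as 27.5 ± 1.53% for Klf10 and 26.2 ± 1.12% for Id1 in DMSO (SD, n = 3). None of 56 was called in total reads and none of 53 in labelled reads. The median log2 fold change was -0.13 in total reads and -0.25 in labelled reads, beside -0.011 and -0.19 over all genes. In total reads 0 lay wholly above DMSO and 4 wholly below (Btg2, Egr4, Mcl1 and Plk2), beside 2.61% and 2.93% of all genes, and in labelled reads 0 above and 9 below, beside 1.37% and 7.56%. Without any one library the median in total reads ran from -0.20 (without ML-792 A) to -0.080 (without ML-792 B).

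Egr1, an early growth response factor, had 21659, 18772 and 20225 in the DMSO libraries A, B and C and 25315, 21309 and 17312 in the ML-792 libraries, and its groups overlapped. Egr3 had 6163, 3713 and 4746 with DMSO and 4923, 2742 and 3309.6 with ML-792, each ML-792 value below the DMSO value of its letter, with a fold change of -0.41 (95% interval -0.89 to 0.057, adjusted p = 1). Egr4 had few reads, at 20.0, 18.5 and 25.2 with DMSO and 7.76, 4.81 and 2.66 with ML-792, and its interval of -4.13 to 0.0083 just included 0. Btg2, an antiproliferative factor, had 7138, 9655 and 7867 in the DMSO libraries A, B and C and 6912, 6680.1 and 6496 in the ML-792 libraries. All its ML-792 values lay below the DMSO values, but the fold change was -0.30 (95% interval -0.69 to 0.095, adjusted p = 1). Its labelled counts did not overlap either, at 1424, 1805 and 1481 with DMSO and 1219.8, 1109 and 1178 with ML-792, a log2 fold change of -0.43 (95% interval -1.04 to 0.18). Cyr61, a matricellular growth factor, had 12040.5, 23032 and 8272 with DMSO and 11082, 9963 and 8929.7 with ML-792, with DMSO B far above the other libraries.

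Pre-adipocyte genes had no call. Of 42 pre-adipocyte and fibroblast genes tested, 0 were called, the median was -0.031 and 37 had an interval within 2-fold. Dlk1 (Pref-1), the secreted inhibitor of adipogenesis, had 65543, 34749.8 and 63211 in the DMSO libraries A, B and C and 66569, 45389 and 55568 in the ML-792 libraries, with both B libraries lowest and a fold change of 0.035 (95% interval -0.50 to 0.57). Pdgfra, the receptor that marks adipocyte precursors, had 2822, 2668 and 2674 in the DMSO libraries A, B and C and 2846, 3054 and 2823 in the ML-792 libraries. Its ML-792 values all lay just above the DMSO values, by a log2 fold change of 0.10 (95% interval -0.18 to 0.37). Vim, the intermediate filament gene, had -0.14 (95% interval -0.51 to 0.23) and Thy1 had 0.17 (95% interval -0.13 to 0.48).

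Matrix genes had no call either. Of 53 collagen and matrix genes, 0 had ML-792 values all above DMSO and 5 had them all below (Col5a2, Col8a1, Lox, Postn and Timp3), beside 2.61% and 2.93% of all genes, and the median was -0.069. Lox, the collagen cross-linking oxidase, had 17968, 19944 and 16703 in the DMSO libraries A, B and C and 14774, 15585 and 13532 in the ML-792 libraries, a log2 fold change of -0.32 (95% interval -0.61 to -0.021, adjusted p = 1). Col1a1, the main fibrillar collagen, had -0.11 (95% interval -0.55 to 0.34) and overlapping groups.

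The adipocyte programme was next. Of 62 adipocyte genes tested, 0 were called, 2 lay wholly above DMSO (Angptl4 and Ppargc1b) and 1 wholly below (Adrb3), beside 2.61% and 2.93% of all genes, and the median was -0.044. Pparg, the master regulator of fat cells, had 531, 668 and 499 in the DMSO libraries A, B and C and 517, 269.8 and 549 in the ML-792 libraries, where ML-792 B was the lowest and the rest overlapped. Cebpa and Cebpb, the C/EBP factors of the cascade, had 0.23 (95% interval -0.42 to 0.88) and -0.19 (95% interval -0.70 to 0.32). Adrb3, the beta-3 adrenergic receptor, had 2.40, 2.64 and 0.870 with DMSO and 0, 0.687 and 0.664 with ML-792, a fold change of -1.79 (95% interval -3.69 to 0.11, adjusted p = 1). These values come from 3, 3 and 1 reads with DMSO and 0, 1 and 1 with ML-792. Its lack of overlap therefore rests on the scaling for library size. Angptl4, a lipoprotein lipase inhibitor induced by PPARs, had 748, 622 and 729 with DMSO and 903, 883 and 939 with ML-792 with no overlap, a fold change of 0.38 (95% interval 0.10 to 0.65, adjusted p = 1). Ppargc1b, a coactivator, did not overlap in total reads or in labelled reads, where it had 6.41, 0.881 and 0 with DMSO and 15.5, 6.87 and 9.96 with ML-792, a fold change of 2.03 (95% interval 0.76 to 3.30, adjusted p = 1).

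The remaining lists held no call in total or labelled reads. Median log2 fold changes were -0.052 for 65 S phase genes, -0.061 for 75 mitosis genes, -0.027 for 42 p53 targets and -0.0031 for 55 ribosome biogenesis genes. They were -0.10 for 48 heat shock and proteasome genes, -0.056 for 39 ATF4 genes, -0.024 for 33 NRF2 genes and -0.10 for 26 cholesterol synthesis genes. TGF-beta and BMP genes (43) had -0.075, SRF and YAP targets (39) -0.032, cytokines and chemokines (28) -0.039, zinc response genes (12) -0.069 and chromatin repressors (41) -0.0021. Only 7 of 53 germline and two-cell genes, which SUMO helps to silence in embryonic cells, had enough reads to be tested, with a median of 0.0073. Cdkn1a, the p53 target that encodes the cell cycle inhibitor p21, had 12235, 6715 and 13804 with DMSO and 12864, 8921 and 11787 with ML-792, with both B libraries lowest.

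**Figure D4:**
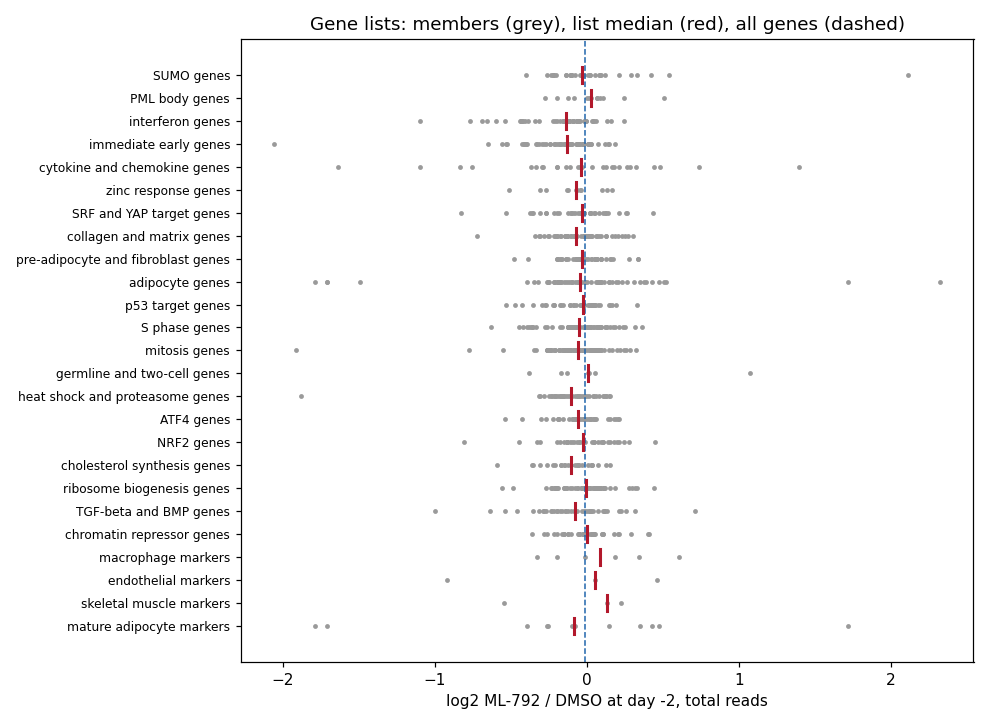
Log2 fold change of ML-792 over DMSO at day -2 in total reads (horizontal) for the tested members of each of the 25 gene lists (grey points), with the list median (red bar) and the median of all genes at -0.011 (dashed). No member was called, and list medians ran from -0.14 to 0.13.

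A further list of 15 genes, most of them shown by the study as examples, was examined gene by gene. Klf3 and Klf13, Krüppel-like factors, had log2 fold changes of -0.088 (95% interval -1.09 to 0.92) and 0.069 (95% interval -0.47 to 0.61). Klf5 had 0.093 (95% interval -0.75 to 0.93), and Top2a, the topoisomerase of dividing cells, had 0.057 (95% interval -0.38 to 0.49). Cd44, Cxcl12 and Ywhag had -0.074 (95% interval -0.35 to 0.20), -0.19 (95% interval -0.56 to 0.17) and 0.036 (95% interval -0.46 to 0.54). Scd1, the stearoyl-CoA desaturase, had -0.21 (95% interval -0.67 to 0.24), and Fabp4, the fatty acid binding protein, had -0.25 (95% interval -0.80 to 0.30). Lipe, hormone-sensitive lipase, had 240.3, 199 and 222 in the DMSO libraries A, B and C and 333, 231 and 327 in the ML-792 libraries. DMSO A exceeded ML-792 B, and the fold change was 0.43 (95% interval -0.0088 to 0.86, adjusted p = 1). In labelled reads Klf10 was the nearest to a difference, at 566, 375 and 427 with DMSO and 395, 229 and 303 with ML-792, a log2 fold change of -0.56 (95% interval -1.19 to 0.062, adjusted p = 1), and only DMSO B fell among the ML-792 values.

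The last comparison asked whether day -2 differed from the later days. In the same fit ML-792 against DMSO gave 1048 called genes at day 1 (7.9%), 2073 at day 3 (15.6%) and 1566 at day 7 (11.8%). The difference itself, the log2 effect of ML-792 at day -2 minus its mean effect at days 1, 3 and 7, was called for 493 of 13274 genes (3.71%), 189 of them higher and 304 lower at day -2. With a replicate block for the letter the count was 1285, and it was 320 without ML-792 library A and 323 without ML-792 library C. For the 304 genes with the lower difference, the median effect was -0.046 at day -2 and 0.96, 1.62 and 1.16 at days 1, 3 and 7. For the 189 with the higher difference it was 0.055, against -0.70, -1.21 and -0.88. Both sets were chosen by this same difference, so a gap between day -2 and the later days follows from the choice. At day -2 the interval of the effect lay within 2-fold for 234 of the 304 and 160 of the 189.

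Tnfrsf22, a decoy receptor of the TNF receptor family, showed the contrast at full size (chromosome 7, 143634808 to 143638436 in mm10). At day -2 its total counts were 74.5, 32.6 and 95.8 in the DMSO libraries A, B and C and 97.5, 50.8 and 100.2 in the ML-792 libraries, so that the groups overlapped. At day 1 they were 77.7, 43.2 and 75.8 with DMSO and 4516, 2483 and 5421 with ML-792. The ML-792 values were again far above DMSO at day 3 (5723 ± 1769 against 81.8 ± 17.9, SD, n = 3) and lay between 883 and 2109.8 at day 7. The difference of effects was -5.04 ± 0.48 (SE, adjusted p 1.61e-06). Extl1, a glycosyltransferase, was also low at day -2 and higher with ML-792 at day 3. It had 4.00, 1.76 and 5.22 with DMSO and 0.863, 2.06 and 4.65 with ML-792 at day -2, while at day 3 ML-792 reached 256 ± 25.9 against 1.18 ± 1.22 with DMSO (SD, n = 3).

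Rgs2, a regulator of G protein signalling, had a difference of the opposite sign. At day -2 it had 3890.4, 3068 and 4197 in the DMSO libraries A, B and C and 4720.4, 3646 and 4511 in the ML-792 libraries, a log2 effect of 0.21 (95% interval -0.14 to 0.55). The effects at days 1, 3 and 7 were -1.48, -2.48 and -1.15. At day 1 its level was 27635 ± 4405 with DMSO and 9927 ± 1343 with ML-792 (SD, n = 3). The difference was 1.91 ± 0.20 (SE, adjusted p 2.03e-06). Rgs2 was also the 1 gene of 6214 called in labelled reads (0.0161%), where its day -2 counts were 322, 219 and 379.5 with DMSO and 342, 312 and 267 with ML-792 and the difference was 2.06 ± 0.33 (SE, adjusted p 4.66e-04). In labelled reads 271 genes had an unadjusted p under 0.05 for the difference, and with a replicate block 6 were called.

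Klf10 and Postn were also called. Klf10, a TGF-beta-inducible Krüppel-like factor, had 2071, 1442 and 1470.2 with DMSO and 1605, 1141 and 1345 with ML-792 at day -2, and its effects were -0.29 there and 1.31, 1.19 and 0.68 at days 1, 3 and 7, a difference of -1.35 ± 0.26 (SE, adjusted p 0.00384). Postn, the matrix protein periostin, had 20058, 21864 and 16418 with DMSO and 16409, 15841 and 14948 with ML-792 at day -2, where all ML-792 values lay below DMSO by a log2 fold change of -0.31 (95% interval -0.67 to 0.062, adjusted p = 1). At day 3 it had 2198 ± 455 with DMSO and 11785 ± 1030.4 with ML-792, and the difference was -1.55 ± 0.21 (SE, adjusted p 8.56e-05). Fabp4 passed with -1.09 ± 0.31 (SE, adjusted p 0.0704), a call lost when any of 5 of the 6 day -2 libraries was left out.

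By list, and beside 3.71% of all genes, the difference was called for 11 of 52 interferon genes (10 of them lower at day -2), 10 of 62 adipocyte genes (9 lower), 9 of 53 matrix genes (6 lower) and 8 of 39 ATF4 genes (8 higher). It was called for 7 of 42 pre-adipocyte genes (5 lower), 5 of 56 immediate early genes (3 lower) and 5 of 28 cytokine and chemokine genes (5 lower). Each other list had 0 to 4 called, with 0 of 32 SUMO, 65 S phase and 55 ribosome biogenesis genes. Shares above 3.71% among these lists included 2 of 13 PML body genes, 4 of 43 TGF-beta and BMP genes and 3 of 33 NRF2 genes. Germline and two-cell genes had 1 of 7. Shares below it included 1 of 75 mitosis genes and 1 of 48 heat shock and proteasome genes. The 8 ATF4 genes, of amino acid synthesis and the stress response, were Aldh18a1, Cth, Ddit3, Herpud1, Mthfd2, Pck2, Slc7a5 and Trib3. Their log2 effects at day -2 ran from -0.27 to 0.21, and their median effects at days 1, 3 and 7 were -0.36, -1.54 and -1.31. The 11 interferon genes had a median of -0.094 at day -2 and 1.16, 1.68 and 1.38 at the later days. These ATF4 and interferon genes are the called ones, so their gap between day -2 and the later days follows from the choice.

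**Figure D5:**
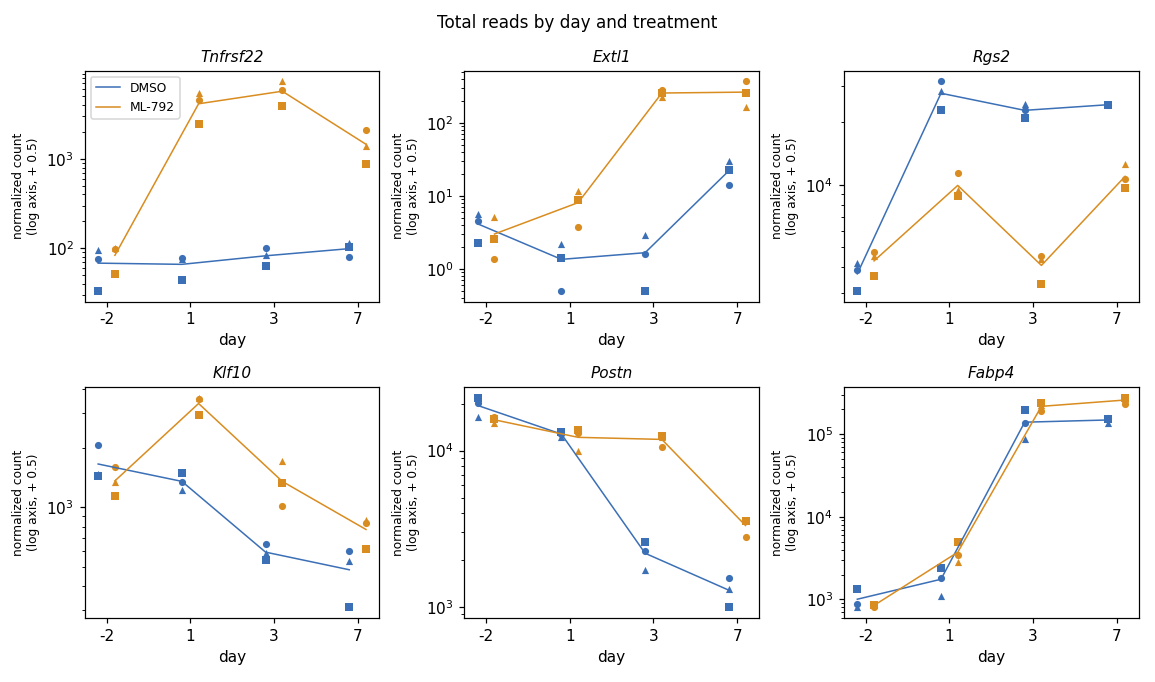
Normalised total counts (vertical, log axis, 0.5 added) at days -2, 1, 3 and 7 for 6 genes called in the difference between day -2 and the later days, in DMSO (blue) and ML-792 (orange), with circles, squares and triangles for replicates A, B and C and lines through the means of 3 libraries. Tnfrsf22 lies between 32.6 and 100.2 in all 6 libraries of day -2 and between 883 and 7396 in every ML-792 library afterwards.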

How the data were processed

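The authors deposited read counts per 3′ UTR entry, as total and as labelled counts, made with SlamDunk on mm10 (RefSeq 3′ UTRs). The submitters' notes name bcl2fastq 2.17.1.14. Each table held 91830 entries of 26995 gene symbols, and 6 columns per table that match no sample were not used. Entry coordinates are given from 1. Fits used edgeR 4.0.16 in R 4.3.3: quasi-likelihood tests over all 24 libraries with 8 condition means, TMM factors of the total reads for both count types, filterByExpr (minimum count 10, total 15), Benjamini-Hochberg over all entries and calls at an adjusted p under 0.1. Where a gene had several entries, the one with most total reads on average stands for it. DESeq2 1.42.0 and limma 3.58.1 were alternatives. Scripts were tested on simulated data.

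The letters A, B and C were taken to pair the libraries only in the alternative fits with a replicate block. The main fits, with the intervals and p-values given for single genes, hold no term for the letter unless a block is named. Deviations from the group means of same-letter libraries correlated by 0.137, 0.294 and 0.189 in total reads and by 0.0963, 0.194 and 0.105 in labelled reads. Between different letters they ran from -0.302 to 0.162 in total reads and from -0.177 to 0.0703 in labelled reads. The highest of these, in both, was DMSO C with ML-792 A. Named genes are those called at day -2 (none), the SUMO genes, 15 further genes, most of them named by the study, and the 5 highest and 5 lowest called differences with non-overlapping letter-wise effects and a mean of at least 50 counts in a condition (20 in labelled reads). The libraries, gene lists and tests were chosen with earlier results of these data known, and the list medians without single libraries were added after seeing the data. No set test was run. Some genes that this rule names are not reported here.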

Additional observations from a re-analysis of the deposited data

Results flagged for a closer look

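The effect of ML-792 at day -2 differed from its mean effect at days 1, 3 and 7 for 493 genes in total reads and 1 in labelled reads, by a test of that difference in edgeR. The 5 genes with the highest called difference were Zcchc5 (6.76 on the log2 scale), Kera, the corneal proteoglycan keratocan (5.04), Plekhs1 (3.67), Rnf144b, a ubiquitin ligase (2.98), and Igfbp5, an IGF binding protein (2.98). Among the lowest were Rdh9, a retinol dehydrogenase (-6.49), Clca3a2 (-5.27), Extl1 (-5.19) and Tnfrsf22 (-5.04). Of the 15 further genes listed, Fabp4 (-1.09), Klf10 (-1.35), Postn (-1.55) and Rgs2 (1.91 in total and 2.06 in labelled reads) were called.

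All but Tnfrsf22, Fabp4, Klf10, Postn and Rgs2 had fewer than 25 normalised counts in every day -2 library. The day -2 part of their differences therefore rests on few reads. Zcchc5 had 0.801, 0.881 and 3.48 with DMSO and 5.18, 6.18 and 0 with ML-792 at day -2, and at day 7 70.8, 31.2 and 55.7 against 0, 0 and 1.36. Kera had 18.4, 1.76 and 24.4 with DMSO and 9.49, 13.7 and 8.63 with ML-792 at day -2 and 216, 235 and 252 with DMSO at day 1 against 1.10, 13.1 and 15.9 with ML-792. Both were at 0 in every library of a later ML-792 group, so their fitted values depend on the prior count. Rdh9 was at 0 in all 3 ML-792 libraries of day -2 and in DMSO B, beside 8.81 and 4.35 in DMSO A and C, so the groups overlapped and its fitted value also depends on the prior count. Calls were lost in 5 of 6 single-library omissions for Plekhs1, 4 for Rdh9 and 3 for Rnf144b.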

How the results depend on the processing

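At day -2 the count of called genes stayed at 0 in total reads under every alternative run: DESeq2, no filter on low counts, 1 entry per gene, only the 6 libraries, the replicate block over 24 or over 6 libraries, an absolute log2 fold change above 1, an adjusted p under 0.05 and leaving out each library. The replicate block left 394 genes at an unadjusted p under 0.05 in total reads and 75 in labelled reads. With only the 6 libraries and no block, these counts were 117 of 12091 genes and 165 of 6058. Labelled reads also stayed at 0 except without the filter on low counts, which called 1 gene, 5730408K05Rik, with 21, 37 and 16 labelled reads with DMSO and 29, 62 and 294 with ML-792, where ML-792 C was far above the rest. The labelled share per gene stayed at 0. The difference from the later days was called for 493 genes in total reads, 1285 with the replicate block and 320 to 411 when 1 library was left out. In labelled reads it was called for 1 gene, 6 with the block and 1 to 4 when 1 library was left out (3 without ML-792 A and 4 without DMSO B). The cause of these shifts was not tested. The labelled share of ML-792 minus DMSO libraries stayed below 0, from -0.575 points without DMSO B to -0.0911 without DMSO A.

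The SUMO genes and the 15 further genes listed stayed uncalled at day -2 in all 562 gene and setting pairs of total reads and 570 of labelled reads, while the sign of the fold change differed in 49 and 34 of these. In the paired fit of the difference, Ywhag, Lipe, Klf13 and Top2a were also called in total reads (Klf13 also without DMSO B) and Postn and Klf10 in labelled reads. The labelled libraries held 528191 to 820046 reads, and 9.75% of their genes had an interval within 2-fold, against 70.6% in total reads.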

Other observations

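The genes with the smallest unadjusted p at day -2 were chosen after their values were seen, and none was called. Igfbp5, an IGF binding protein of fibroblasts, had 0.801, 2.64 and 2.61 in the DMSO libraries A, B and C and 14.7, 11.7 and 7.30 in the ML-792 libraries, a log2 fold change of 2.41 (95% interval 1.32 to 3.50, adjusted p = 1) and the smallest p of all genes in total reads. The groups did not overlap, on fewer than 15 normalised counts per library.

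At higher counts, Oxsm, an enzyme of mitochondrial fatty acid synthesis, had 49.7, 110.1 and 60.9 in the DMSO libraries A, B and C and 31.1, 35.7 and 26.6 in the ML-792 libraries, a log2 fold change of -1.24 (95% interval -1.89 to -0.59, adjusted p = 1). Parp6 had 99.3, 100.4 and 118 with DMSO and 150.1, 191 and 171 with ML-792, a fold change of 0.69 (95% interval 0.28 to 1.09). The 3 ML-792 values lay on one side of the 3 DMSO values in both genes.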
